A study of Mus musculus with 12 samples.

Results

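The semaphorins, ephrins, Slits, netrins and netrin-Gs, together with the plexins, neuropilins, Eph receptors, Robos, Unc5 proteins, Dcc and Neo1 that receive them, were followed in mouse dorsal root ganglia after sciatic nerve injury. They were taken from the count files by gene symbol, a rule that uses no measured value, although the families were picked with earlier results of these data known. This gave 72 genes of 23238 symbols, 37 of them ligands and 35 receptors, and 64 of the 72 passed the filter on low counts that left 15036 genes to test. The files came from C57BL/6 mice at postnatal week 8, and the ganglia of lumbar levels 3 to 5, whose sensory neurons supply the sciatic nerve, were taken from females and from males. In each sex 1 group had the sciatic nerve injured (SNI) and the other was a sham control, which gave 4 groups (Female sham, Female SNI, Male sham and Male SNI) of 3 libraries each. The sources used here do not give the kind of lesion or the time after it. Nothing in the labels says that the 3 replicates of a group came from separate animals, so the spread behind each p-value is that between libraries and may be technical only.

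Axon guidance cues are secreted or membrane-bound proteins that turn, attract or repel a growing axon through receptors on its growth cone. Semaphorins act through plexins, with neuropilins as co-receptors for the secreted class 3 members; ephrins are held on cell membranes and act through the Eph receptor tyrosine kinases; Slits repel through Robos; netrins attract through Dcc and repel when Unc5 proteins take part. Adult sensory ganglia keep expressing many of them, and their neurons, glia, vessels and connective tissue can all contribute transcripts to a whole-ganglion library.

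The files, which hold counts of reads from the 3′ ends of transcripts, gave 12476606 to 15520746 counts per library, of which the guidance genes took 0.160% to 0.191%. Levels are CPM, that is counts brought to a common library total with scaling factors, and 3 counts in a single library equal 0.193 to 0.24 CPM, which covers counting error only. Atf3, a transcription factor that injured sensory neurons switch on, lay at 43.6 to 56.7 CPM in the sham libraries and at 275 to 361 CPM in the SNI libraries, as the labels have it. Neuronal markers were abundant (8 markers summed to 15400 to 18100 CPM in sham and 13400 to 17400 in SNI libraries; Scn10a and Nefh were among those that fell). Of the lists of markers for other cells, 7 of 8 macrophage markers rose, from a sum of 104 to 173 CPM in sham libraries to 233 to 420 CPM in SNI libraries. For satellite glia 1 of 6 (Glul) rose. The satellite glia sums were 4370 to 5920 CPM in sham and 5320 to 5760 CPM in SNI libraries, apart from 8280 CPM in Male SNI replicate 2. In that library 7610 CPM of the sum was Apoe, which did not pass. For fibroblasts and perineurial cells, listed together, 1 of 6 (Slc2a1) rose, with sums of 1490 to 2370 and 1260 to 2570 CPM. Dcn, Lum, Col1a1, Col1a2 and Pdgfra of that list did not pass. None of the Schwann cell (6), endothelial (8), mural (6), skeletal muscle (6) or tested central nervous system (4) markers passed over both sexes, and the central nervous system marker Neurod6 was at 0 in every library. The muscle markers summed to 1410 CPM in Male SNI replicate 1 and to 142 to 251 CPM in the other 11 libraries. In those 11 most of the sum was Pvalb, at 133 to 218 CPM in sham and 107 to 142 CPM in SNI libraries. Male SNI replicate 1 had 219 CPM of Pvalb. Acta1 was at 1.95 to 14.9 CPM in sham libraries and at 445 CPM in Male SNI replicate 1. The mural and muscle gene Des passed in males (log2 3.74; adjusted p = 0.0375), at 14.2 CPM in that library. The part these other cells play in the changes below was not tested. One library stood apart: Male SNI replicate 2 lay at 109 on the first principal component of all tested genes (25.5% of the variance) and Female sham replicate 2 at 49.6, against -34 to -0.0534 for the other libraries, so results that turn on either are also given without it.

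Guidance genes changed in both directions after injury, with 1 to 3 genes called in each of 6 of the 10 families. Averaged over the sexes, Sema6a, Ephb2, Sema4f and Plxna4 rose and Sema7a, Ntng1, Slit2, Robo2 and Plxna2 fell (edgeR quasi-likelihood test, Benjamini-Hochberg adjusted p below 0.05 over all 15036 genes). These 9 of 64 tested guidance genes, or 14.1%, compare with 6.52% of all tested genes. An unadjusted p below 0.05 was reached by 21 of the 64, against 2764 of all 15036 genes. The 4 that rose were 6.25% of the tested guidance genes against 3.78% of all genes, and the 5 that fell were 7.81% against 2.73%. The median log2 change over the 64 was -0.03, with 27 higher and 37 lower after injury (42.2% higher). Over all tested genes it was 0.00307, with 7588 higher and 7448 lower (50.5% higher). By role, 2 ligands rose and 3 fell of 33 tested, and 2 receptors rose and 2 fell of 31. In 3 genes (Sema4f, Sema6a and Plxna4) all 6 SNI libraries lay above all 6 sham libraries, a pattern found in 2.79% of all tested genes, and in 3 (Slit2, Robo2 and Ntng1) all 6 lay below, against 2.04%. In whole ganglia, fewer cells of a type and less RNA per cell cannot be told apart.

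**Figure D1:**
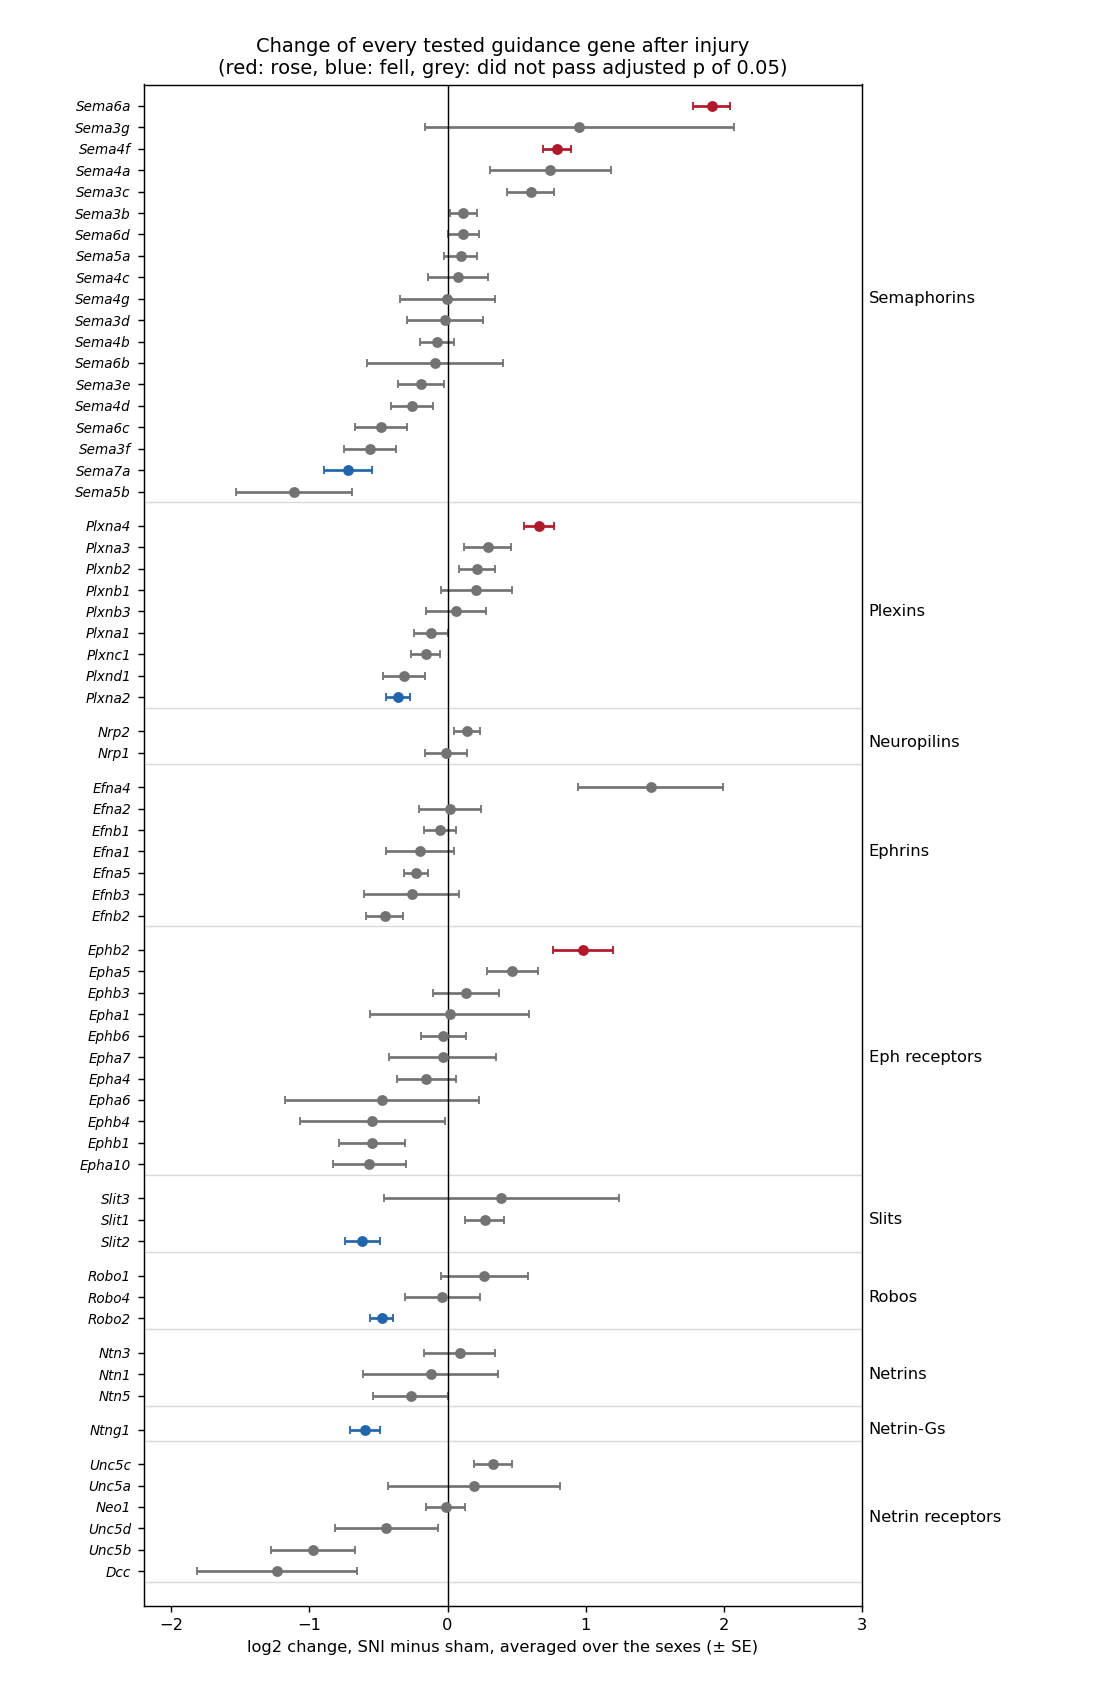
Log2 change of each of the 64 tested guidance genes (rows, grouped by family), SNI minus sham averaged over the sexes, with its standard error as a bar. The 4 red points (Sema6a, Ephb2, Sema4f and Plxna4) rose, the 5 blue points (Sema7a, Ntng1, Slit2, Robo2 and Plxna2) fell, and the 55 grey points did not pass; each family holds points on either side of 0 except the netrin-Gs, where only Ntng1 was tested.

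The start sites of the genes that moved were looked at for the AP-1 core, the sequence bound by Jun, Fos and Atf3 dimers. In the RefSeq promoter windows of GRCm38.p6 (that is, mm10), which run from 250 bases before a start site to 50 after it, the core TGANTCA, read on both strands, occurred in 0 of the 7 called genes that have a window. Sema6a and Plxna4 have no window, so of the genes that rose only Ephb2 and Sema4f were covered. The core occurred in 3 of the 54 tested guidance genes with a window (Sema4c, Sema4d and Sema6b; 5.56%). Its share was 6.36% of tested genes and 8.97% of all genes with a window, and 7.81% of all 32851 windows. None of those 3 passed the injury test: their log2 changes were 0.08 ± 0.22 (SE), -0.26 ± 0.15 and -0.09 ± 0.491, with adjusted p of 0.919, 0.414 and 0.964. The stretches shown here are the ones upstream of a ligand that rose, Sema4f, and of a receptor that fell, Robo2, that lie outside annotated exons. They are given 5′ to 3′ on the minus strand, on which both genes lie, at chr6:82939770-82940019 for Sema4f (250 bases) and chr16:75447444-75447543 for Robo2 (100 bases). Capitals mark the CCAAT box, a common promoter element, searched on either strand after the sequences had been seen and found here in its reverse form ATTGG.
Sema4f: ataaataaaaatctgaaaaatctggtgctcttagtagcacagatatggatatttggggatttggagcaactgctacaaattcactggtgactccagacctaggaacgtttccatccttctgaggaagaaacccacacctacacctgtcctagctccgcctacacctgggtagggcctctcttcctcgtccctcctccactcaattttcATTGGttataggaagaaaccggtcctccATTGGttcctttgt
Robo2: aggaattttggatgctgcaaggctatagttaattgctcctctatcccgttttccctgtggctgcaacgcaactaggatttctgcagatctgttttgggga
The Sema4f stretch holds 2 CCAAT boxes and no AP-1 core, and the Robo2 stretch holds neither. Robo2 has several windows, and its stretch is the part of 1 of them that lies farthest from the start site. Over their full 250 upstream bases, none of the Robo2 windows held a CCAAT box or an AP-1 core. A CCAAT box on either strand occurs in 33.8% of all upstream windows of 250 bases, in 34.6% of those of tested genes and in 29.0% of those of tested guidance genes. A match of letters is a description of the window and says nothing of what binds there.

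Among the ligands, Sema6a changed most. Sema6a is a membrane-spanning class 6 semaphorin that binds plexins A2 and A4 and can itself signal into the cell that carries it; its gene lies on chromosome 18. In Female sham libraries it was at 39.9, 34.0 and 43.1 CPM and in Female SNI libraries at 166, 154 and 165 CPM. Males gave 39.3, 40.2 and 40.4 CPM in sham and 157, 89.2 and 163 CPM in SNI libraries. All 6 SNI values lay above all 6 sham values, and the lowest of them, 89.2 CPM, came from Male SNI replicate 2, the library that stood apart. The change was 3.76-fold (log2 1.91 ± 0.136, SE; adjusted p = 1.09e-06), 2.05 ± 0.193 in females and 1.77 ± 0.191 in males, and leaving out any 1 library kept it between 1.84 and 2.03.

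Sema4f, a membrane-spanning class 4 semaphorin (chr6:82911884-82939769), had 42.6, 52.3 and 44.3 CPM in Female sham and 85.7, 82.2 and 77.9 CPM in Female SNI libraries. In males the sham libraries gave 44.2, 51.0 and 49.9 CPM and the SNI libraries 69.6, 97.7 and 78.7 CPM. The lowest SNI value exceeded the highest sham value in each sex. Sema4f was 1.73-fold higher after injury (log2 0.79 ± 0.103; adjusted p = 0.00031), with group means of 46.4 ± 5.19 and 81.9 ± 3.91 CPM in females and 48.4 ± 3.64 and 82.0 ± 14.3 CPM in males (SD, n = 3).

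Sema7a went the other way. It is anchored to the membrane by a lipid and acts through integrin beta 1 and plexin C1, and it is known to promote rather than stop axon growth in some settings (chr9:57939596-57962865). Female sham libraries gave 43.1, 30.2 and 44.0 CPM and Female SNI libraries 22.1, 25.9 and 23.4 CPM, without overlap. Male sham libraries gave 39.2, 44.5 and 34.0 CPM and Male SNI libraries 20.6, 16.3 and 34.3 CPM, where the highest SNI value lay inside the sham range. Sema7a was 1.65-fold lower (log2 -0.72 ± 0.173; adjusted p = 0.022). This call needed most of the libraries: it was lost (adjusted p between 0.0576 and 0.0694) without Female SNI replicate 1 (log2 -0.70), Female SNI replicate 3 (-0.71), Female sham replicate 1 (-0.68), Female sham replicate 3 (-0.67), Male SNI replicate 1 (-0.67), Male sham replicate 1 (-0.72) or Male sham replicate 2 (-0.67).

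The other 16 tested semaphorins did not pass edgeR's test, while DESeq2 called 1 of them (Sema3c) and limma-voom 4 (Sema3c, Sema3e, Sema4a and Sema5b). For DESeq2 and limma-voom the share of all genes called is not given here, so their counts have no background. Of the secreted class 3 semaphorins, which bind neuropilins, 0 of 6 passed in edgeR, 1 in DESeq2 and 2 in limma-voom. In edgeR 2 had an unadjusted p below 0.05 (Sema3c and Sema3f), against 2764 of all 15036 genes. Sema3c came close: Female sham 14.7, 21.0 and 15.5 CPM against Female SNI 22.8, 15.8 and 28.1 CPM, which overlapped, and Male sham 13, 15.3 and 19.4 CPM against Male SNI 28.9, 32.3 and 23.2 CPM, which did not (log2 0.60 ± 0.171; adjusted p = 0.0522). Sema3a, the classical repellent of sensory axons, did not pass the filter, with 33 counts in all 12 libraries together. Sema5a had the most counts of the semaphorins and lay at 106 to 139 CPM in sham and at 116 to 174 CPM in SNI libraries, with a log2 change of 0.09 ± 0.118 (adjusted p = 0.764). Its relative Sema5b was low and lower after injury in 5 of 6 libraries: sham libraries gave 3.15 to 4.75 CPM, SNI libraries 0.748 to 2.13 CPM, apart from 4.53 CPM in Male SNI replicate 2 (log2 -1.11 ± 0.417; adjusted p = 0.153, and -1.68 ± 0.359 with 0.00461 without that library). Sema4a, of class 4, ranged from 1.14 to 9.95 CPM in sham and from 2.46 to 13.6 CPM in SNI libraries (log2 0.74 ± 0.437, adjusted p = 0.416). Both lowest values came from the libraries that stood apart, Female sham replicate 2 and Male SNI replicate 2. The other libraries lay at 4.16 to 9.95 CPM in sham and 8.54 to 13.6 CPM in SNI, still with overlap. Without both, edgeR gave a log2 change of 0.73 ± 0.246 (adjusted p = 0.0576).

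Slit2, a secreted repellent that Robo receptors read (chr5:47981291-48307735), was the only Slit that passed. In females its sham libraries gave 20, 22.8 and 24.4 CPM and its SNI libraries 16.3, 13.7 and 17.8 CPM. Male sham libraries gave 23.6, 25.6 and 28.5 CPM against 17.2, 16.1 and 13.2 CPM in Male SNI libraries. Every SNI value lay under every sham value. Slit2 was 1.53-fold lower (log2 -0.62 ± 0.127; adjusted p = 0.00879), and stayed called without any 1 library (-0.66 to -0.57). Slit1 had the most counts of the family, and its log2 change was 0.27 ± 0.14 (adjusted p = 0.341). Slit3 was low, at 0 to 1.29 CPM and at most 19 counts in a library, and its change (0.39 ± 0.851) was smaller than its standard error.

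Its receptor Robo2 fell as well. Robo2 is the Robo with the most counts here (chr16:73891976-75447443). Levels of 87.1, 93.7 and 95.3 CPM in Female sham stood against 62.7, 60.3 and 73.2 CPM in Female SNI libraries. Male sham libraries 106, 91.1 and 95.5 CPM against 70.8, 72.3 and 69.9 CPM in Male SNI libraries. The conditions did not overlap in either sex, and the Male SNI values lay close together. Robo2 was 1.39-fold lower (log2 -0.47 ± 0.0836; adjusted p = 0.00327; -0.52 to -0.44 without any 1 library, called each time). Robo1 and Robo4, the latter known from blood vessels, were low and did not pass (0.27 ± 0.316 and -0.04 ± 0.274), and Robo3 did not pass the filter, with 38 counts in all.

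Ntng1 encodes netrin-G1, a lipid-anchored relative of the netrins that binds not Dcc but the synaptic adhesion protein NGL-1 (Lrrc4c); it lies at chr3:109780050-110149972. In females the sham libraries gave 67.2, 79.1 and 87.2 CPM and the SNI libraries 48.5, 49.6 and 53.7 CPM. Male sham libraries gave 97.4, 77.1 and 77.0 CPM and Male SNI libraries 48.5, 66.5 and 53.7 CPM. No SNI library reached the lowest sham library, and the nearest was Male SNI replicate 2. Ntng1 was 1.51-fold lower (log2 -0.60 ± 0.11; adjusted p = 0.00424; called without any 1 library, -0.66 to -0.54). Its paralog Ntng2 did not pass the filter, with 26 counts in all, and its exons overlap another gene on the same strand.

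None of the 3 tested netrins passed in edgeR, DESeq2 or limma-voom, and none had an unadjusted p below 0.05. Ntn5, with the most counts of them, lay at 2.86 to 8.5 CPM over the 12 libraries (log2 -0.27 ± 0.272; adjusted p = 0.689), Ntn1, the classical netrin, at 0.845 to 4.15 CPM (-0.12 ± 0.489), and Ntn4 had 10 counts in all. Ntn3 shares exon bases with Tbc1d24 and Ntn5 with Sec1, so that reads could be split between them, and their values are uncertain. Of the netrin receptors, 0 of 6 passed edgeR's test, with 2 at an unadjusted p below 0.05, against 2764 of all 15036 genes. Unc5b, a receptor for repulsion, came nearest, with Female sham at 11.8, 9.99 and 16.7 CPM, Female SNI at 12.2, 10.4 and 5.8 CPM, Male sham at 14.0, 23.7 and 18.1 CPM and Male SNI at 5.04, 2.77 and 11.8 CPM (log2 -0.97 ± 0.306; adjusted p = 0.0811). The conditions overlapped in females and not in males. Unc5c, with the most counts of these receptors, gave a log2 change of 0.33 ± 0.138 (adjusted p = 0.212), Neo1, which also binds repulsive guidance molecules, -0.01 ± 0.142, and Dcc, the attractive netrin receptor, lay at 0.0768 to 2.04 CPM (-1.24 ± 0.582; adjusted p = 0.278). DESeq2 and limma-voom each called 1 of the 6, Unc5b.

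**Figure D2:**
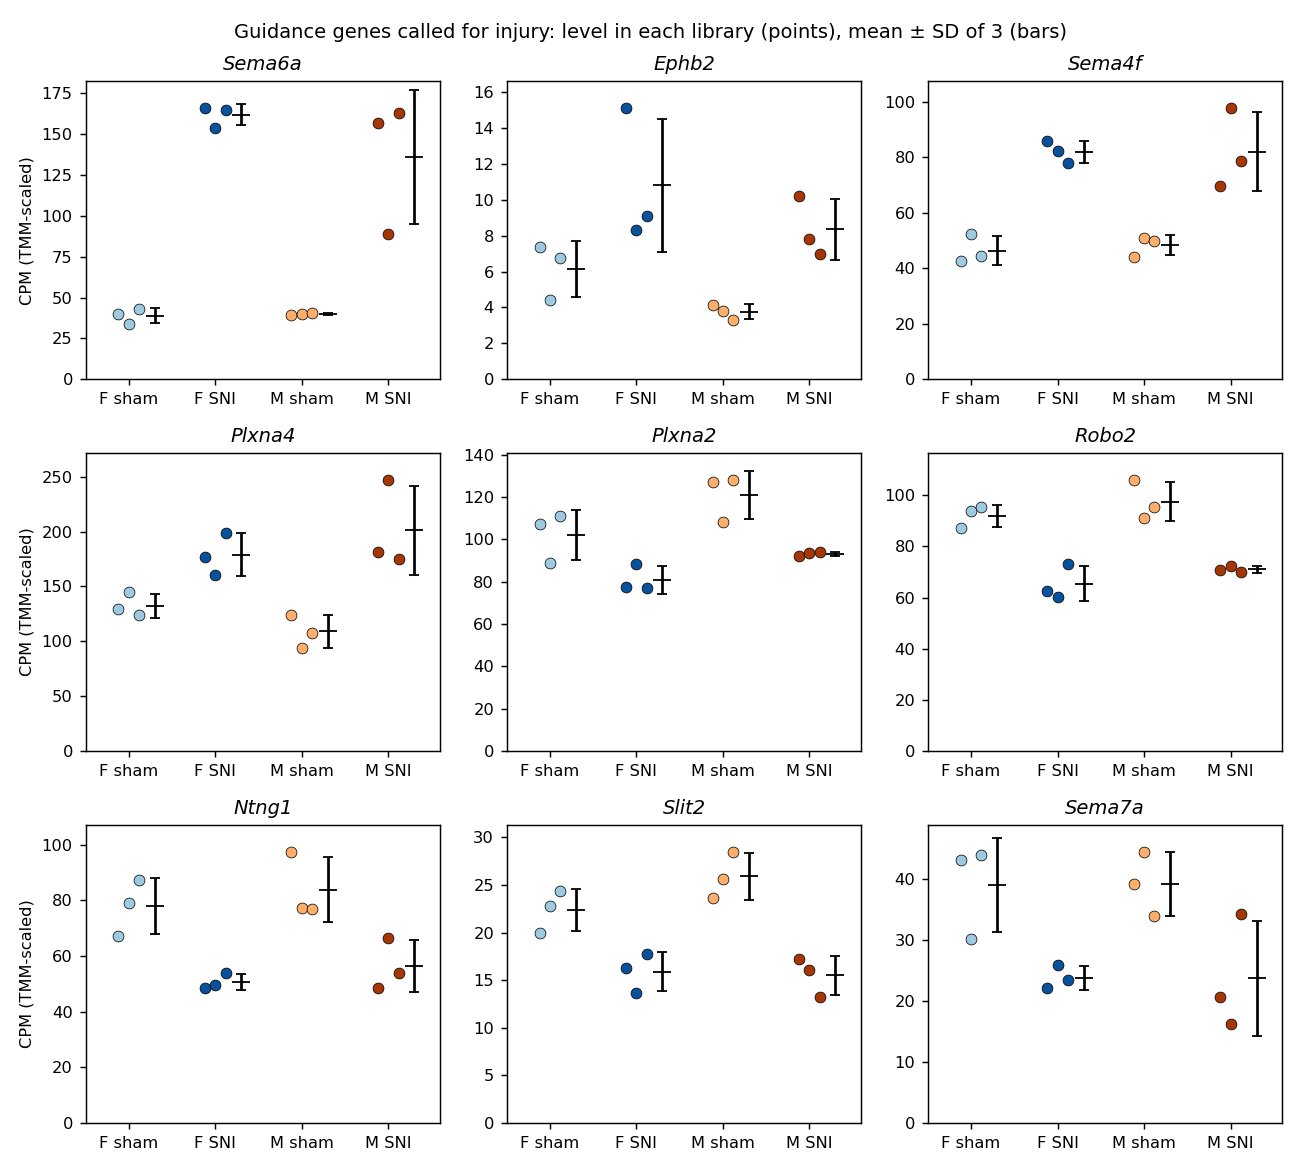
Level of each of the 9 guidance genes called for injury in every library (points; CPM on scaled totals, y axis from 0), with the mean ± SD of the 3 libraries of a group (F, female; M, male) as a bar beside them. Sema6a goes from 34.0 to 43.1 CPM in sham libraries to 89.2 to 166 CPM after injury, while Robo2, Ntng1 and Slit2 lie lower in every SNI library than in any sham library.

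The plexins, which receive semaphorins, moved in opposite directions within class A. Plxna4, a receptor for Sema6a and, with neuropilin 1, for Sema3a, had the most counts of the plexins (chr6:32144543-32588192). Female sham libraries gave 129, 145 and 124 CPM against 177, 160 and 199 CPM after injury. Males had 124, 93.9 and 108 CPM in sham libraries against 181, 247 and 175 CPM. All 6 SNI libraries were above all 6 sham libraries, with the highest value in Male SNI replicate 2. Plxna4 was 1.58-fold higher (log2 0.66 ± 0.11; adjusted p = 0.0022; 0.58 to 0.72 without any 1 library, called each time). Its exons overlap those of antisense transcripts that were not among the genes tested, and the sources used here do not say whether counting used the strand.

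Plxna2, the other class A plexin that binds Sema6a, fell (chr1:194619791-194816869). Female sham libraries gave 107, 89.0 and 111 CPM and Female SNI libraries 77.4, 88.2 and 76.8 CPM, so that the groups only just separated. Male sham libraries gave 127, 108 and 128 CPM and Male SNI libraries 92.1, 93.4 and 93.9 CPM. Plxna2 was 1.28-fold lower (log2 -0.36 ± 0.0877; adjusted p = 0.0245). The call was lost, with log2 changes of -0.36 to -0.33 and adjusted p of 0.053 to 0.0793, without any 1 of Female SNI replicates 1 or 3, Female sham replicates 1 or 3, Male SNI replicate 1 or Male sham replicates 1 or 3. The remaining 7 plexins did not pass edgeR's or DESeq2's test, and limma-voom called 1 of them, Plxnd1: Plxnc1, which binds Sema7a, gave -0.16 ± 0.102 (adjusted p = 0.469), and Plxnd1, the Sema3e receptor, -0.31 ± 0.15 (adjusted p = 0.285). Plxnb1, a receptor of Sema4d, lay at 7.4 to 14.3 CPM in 11 libraries and at 25.7 CPM in Male SNI replicate 2. Its log2 change was 0.21 ± 0.258 with that library and -0.135 ± 0.176 without it.

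Neither neuropilin passed in edgeR, DESeq2 or limma-voom or had an unadjusted p below 0.05. Nrp1, the co-receptor of Sema3a, was at 106 to 161 CPM in sham libraries and at 133 to 154 CPM in 5 SNI libraries, with 73.8 CPM in Male SNI replicate 2 (log2 -0.01 ± 0.153; adjusted p = 0.987). Nrp2, the co-receptor of Sema3f, was at 44.3 to 56.5 CPM in sham and 50.5 to 59.7 CPM in SNI libraries (0.14 ± 0.091; adjusted p = 0.469). For both, the sham and SNI ranges overlapped.

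In the ephrin system 1 receptor passed. Ephb2 is a receptor tyrosine kinase for B ephrins, known for axon guidance and for synaptic signalling (chr4:136647536-136836326). Its Female sham values were 7.35, 4.39 and 6.74 CPM against 15.1, 8.3 and 9.11 CPM after injury. Males had 4.16, 3.83 and 3.31 CPM in sham libraries against 10.2, 7.84 and 6.99 CPM. The groups separated within each sex, but the lowest male SNI value lay under the highest female sham value. Ephb2 was 1.97-fold higher (log2 0.98 ± 0.214; adjusted p = 0.0129; 0.82 to 1.06 without any 1 library, called each time).

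The remaining 10 tested Eph receptors did not pass, and Epha2, Epha3 and Epha8 did not pass the filter, with 65, 72 and 69 counts in all. Ephb6, which lacks kinase activity and had the most counts of the Eph receptors, gave a log2 change of -0.03 ± 0.161 (adjusted p = 0.962). Epha5 lay at 11.5 to 20 CPM in sham and at 15.6 to 33.4 CPM in SNI libraries (0.47 ± 0.185; adjusted p = 0.182), and Ephb1 and Epha10 gave -0.55 ± 0.241 and -0.57 ± 0.261 (adjusted p of 0.237 and 0.268). Epha1 shares exon bases with Zyx and is uncertain.

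None of the 7 tested ephrins passed edgeR's test, with 3 at an unadjusted p below 0.05, against 2764 of all 15036 genes. Efnb2, a membrane-spanning ligand of EphB receptors and EphA4, came nearest, with Female sham at 24.8, 19.1 and 28.6 CPM, Female SNI at 18.3, 16.5 and 17.7 CPM, Male sham at 21.2, 31.5 and 27.6 CPM and Male SNI at 18.3, 19.7 and 21.0 CPM. The groups were separated within each sex, and the log2 change was -0.46 ± 0.137 (adjusted p = 0.0663). Efna5, the lipid-anchored ephrin with the most counts, gave -0.23 ± 0.0874 (adjusted p = 0.167), and the low Efna4 1.47 ± 0.526 (adjusted p = 0.131). DESeq2 called 1 ephrin (Efnb2) and limma-voom 2 (Efna5 and Efnb2), and Efna3 did not pass the filter, with 9 counts in all.

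Averaged over the sexes, 5 genes not called with all 12 libraries were called when certain libraries were left out. Sema7a and Plxna2 were called with all 12 and lost without certain libraries, as given above. Male SNI replicate 2 stood apart in the guidance genes too. Among the 12 libraries it gave the highest or the lowest value of 26 of the 64 guidance genes, against 5 to 15 for each of the others, and on the first component of the guidance genes themselves it lay at 6.9 against -2.86 to 1.81. Without it 14 of 66 guidance genes were called, or 21.2%, against 11.5% of all genes in that fit, so that the share of calls rose for all genes as well. The 14 were all 9 above and Unc5b (log2 -0.78 ± 0.246; adjusted p = 0.0483), Sema5b (-1.68 ± 0.359; 0.00461), Efna5 (-0.29 ± 0.0741; 0.0157), Sema3c (0.55 ± 0.168; 0.0422) and Efnb2 (-0.45 ± 0.141; 0.0472). The changes of Sema5b and Efna5 were larger without that library, and those of Unc5b, Sema3c and Efnb2 were not. The same 14 were called, of 65, without both Male SNI replicate 2 and Female sham replicate 2 (21.5%, against 12.1% of all genes). Other single libraries mattered as well: Sema3c was called without Female SNI replicate 2 (0.70; adjusted p = 0.0306), without Female sham replicate 2 (0.69; 0.0403) and without Male SNI replicate 3 (0.66; 0.0375). Efnb2 was called without Female sham replicate 2 (-0.53; 0.0375), and Unc5b without Male SNI replicate 3 (-1.35; 0.00528).

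**Figure D3:**
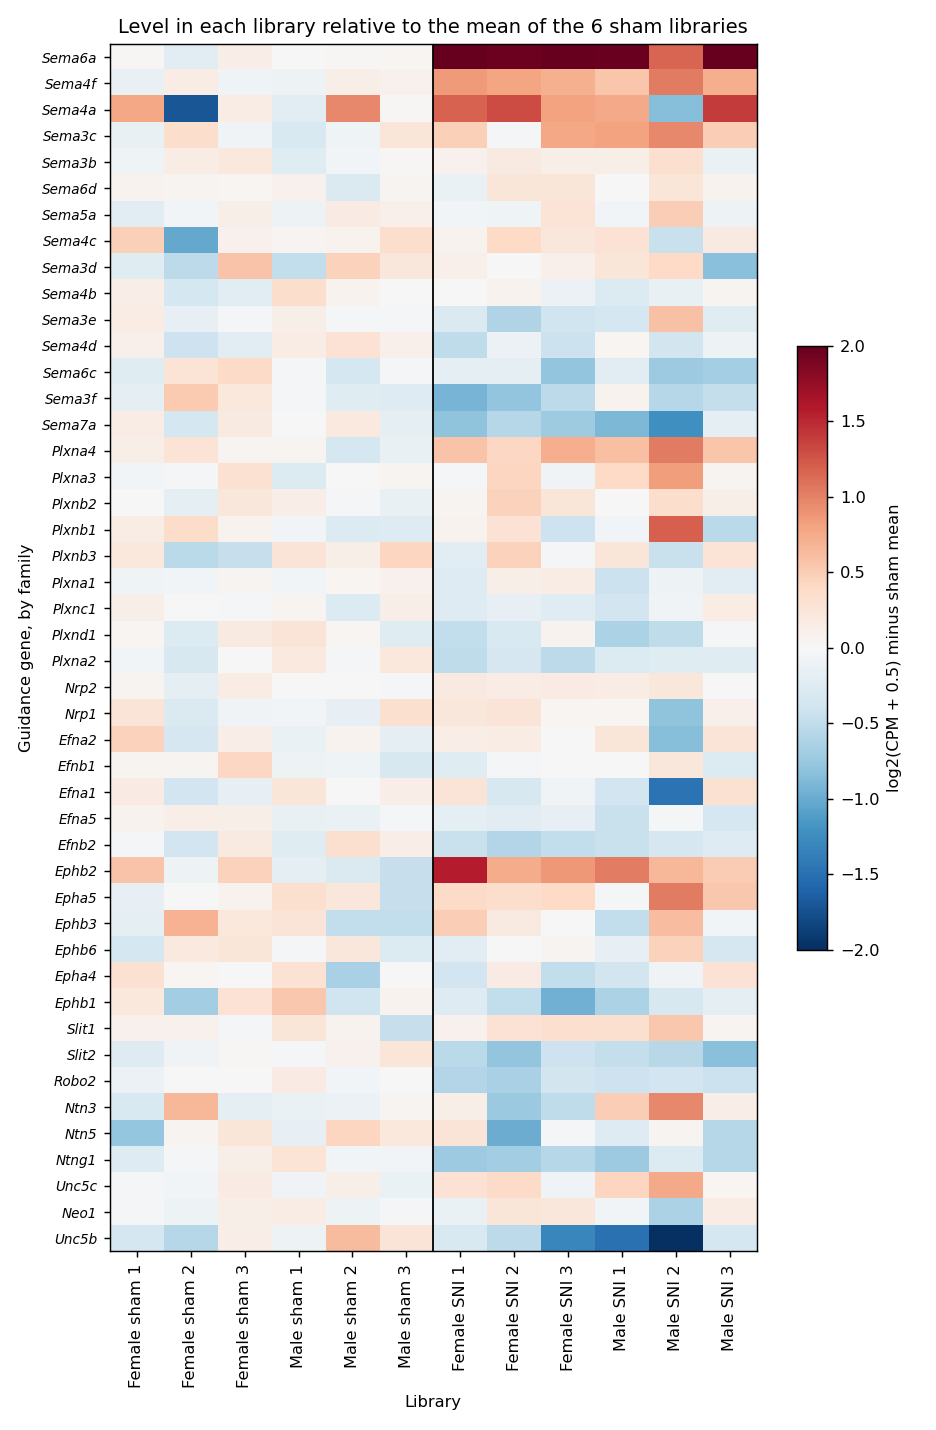
Level of the 46 guidance genes with a mean of at least 5 CPM (rows, by family) in each of the 12 libraries (columns; sham left and SNI right of the line), as log2(CPM + 0.5) minus the mean of the 6 sham libraries, with colours capped at -2 and 2. Sema6a is red in all 6 SNI libraries and palest in Male SNI replicate 2, the column that is also blue for Efna1 (5.84 CPM), Nrp1 (73.8 CPM) and Unc5b (2.77 CPM).

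The study set out to compare males with females. In females 4 of 64 guidance genes were called (6.25%, against 2.89% of all genes): 2 rose (Sema6a and Sema4f; 1.6% of all genes did) and 2 fell (Robo2 and Ntng1; 1.29%). In males 4 were called (6.25%, against 2.13%): 3 rose (Sema6a, Sema4f and Plxna4; 1.65% of all genes did) and 1 fell (Slit2; 0.486%). The log2 changes of the called genes lay near each other in the sexes: Sema4f 0.82 ± 0.146 in females and 0.76 ± 0.146 in males, Robo2 -0.49 ± 0.118 and -0.46 ± 0.118, Ntng1 -0.62 ± 0.155 and -0.58 ± 0.155, Slit2 -0.49 ± 0.179 and -0.74 ± 0.179. The gap was wider for Plxna4, 0.43 ± 0.155 in females (adjusted p = 0.18) and 0.89 ± 0.156 in males (adjusted p = 0.00733). With males fitted alone only Sema6a stayed called, while Slit2, Plxna4 and Sema4f were lost (adjusted p of 0.237, 0.106 and 0.151). The male call of Slit2 was also lost with DESeq2 size factors (0.0515) and without the filter on low counts (0.0711), where the female call of Robo2 was lost too (0.0616). Several calls within 1 sex depended on single libraries in the 12 fits that each leave 1 out. In those fits the female call of Robo2 held only without Male SNI replicate 2 or 3 (log2 -0.58 to -0.44 and adjusted p 0.0106 to 0.186 over the 12). That of Ntng1 held only when Female sham replicate 1 or one of Male SNI replicates 2 and 3 was left out (-0.72 to -0.54; 0.00658 to 0.192), and the male call of Slit2 held only without Male SNI replicate 2 (-0.82 to -0.64; 0.0446 to 0.211). Sema4f was lost in females without Female sham replicate 3 (0.78; 0.0551) and in males without Male sham replicate 1 (0.70; 0.0985) or 3 (0.79; 0.0611), and Plxna4 in males without Male sham replicate 2 (0.79; 0.0536). Sema6a was called in both sexes without any 1 library.

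No guidance gene passed the test of the difference between the sexes in edgeR, and DESeq2 and limma called 0 too; edgeR called 0 of all 15036 genes, so 0% is also the background. At an unadjusted p below 0.05 there were 2, Sema3f and Ntn3, against 1100 of all genes. In females Sema3f was at 9.14, 15.3 and 12.1 CPM in the sham and 5.27, 5.85 and 7.13 CPM in the SNI libraries, without overlap, and at 10.1, 8.73 and 8.6 against 11, 6.84 and 7.4 CPM in males, with overlap. The difference of the changes, males minus females, was 0.88 ± 0.372 for Sema3f (adjusted p = 0.647), 1.18 ± 0.512 for Ntn3, whose exons overlap a neighbour's, and 0.46 ± 0.219 for Plxna4 (the same adjusted p for both). For Sema6a it was -0.28 ± 0.263 and for Robo2 0.04 ± 0.167. These misses do not show that the sexes respond alike: the standard errors leave room for differences of the size of the injury changes themselves in Slit2 (-0.25 ± 0.253) and Ephb2 (0.33 ± 0.424). The 2 sexes gave the same sign in 38 of 64 guidance genes (59.4%) and in 54.1% of all genes, and no guidance gene separated its groups in opposite directions in the sexes, against 0.499% of all genes.

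**Figure D4:**
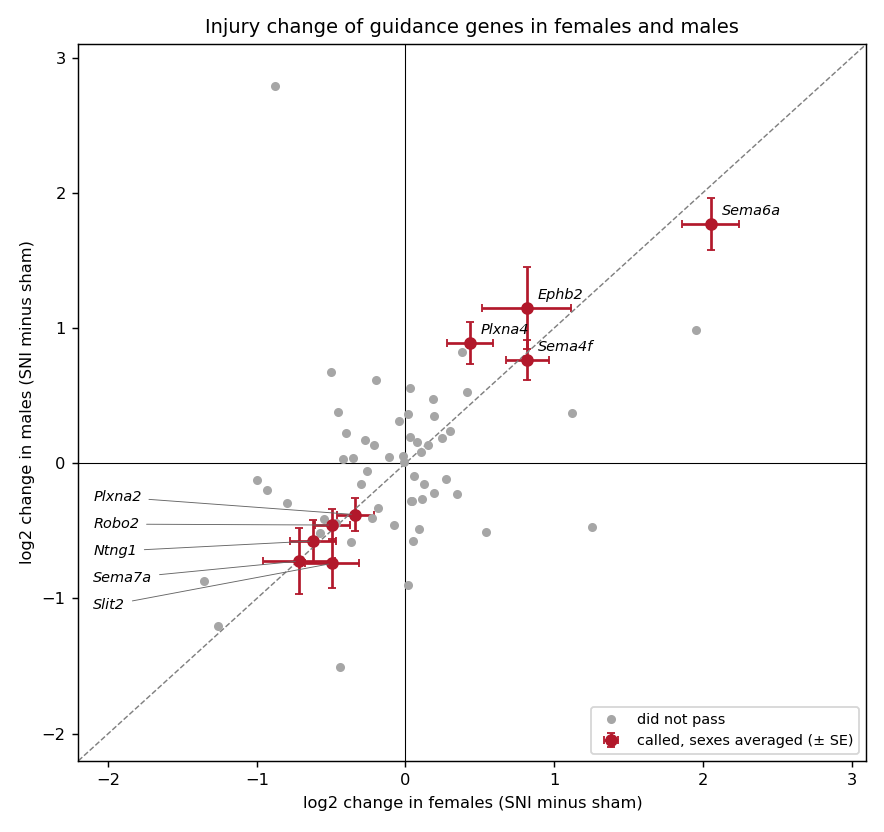
Log2 change after injury in females (x axis) and in males (y axis) for the 64 tested guidance genes, with standard errors for the 9 called over both sexes; the dashed line marks equal change. The 9 called genes lie near the line, Plxna4 above it (0.43 and 0.89), and the grey point far up at the left is Sema3g, at 0 to 1.18 CPM in every library.

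Sham ganglia of the sexes did not differ in any tested guidance gene after adjustment in edgeR, DESeq2 or limma, against 0.0399% of all genes called by edgeR (0.0266% higher and 0.0133% lower in males). At an unadjusted p below 0.05 there were 3 of 64, against 688 of 15036 genes, about the same share. Ephb2 was lower in Male sham than in Female sham libraries (log2 -0.71; adjusted p = 0.938), as was Efnb1, a B ephrin encoded on the X chromosome (-0.36; same adjusted p), and Unc5d was higher (1.16; same adjusted p), with 0.908 to 1.69 CPM in the sham libraries of females and 2.55 to 3.22 CPM in those of males.

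Proteins that carry guidance signals inward or share their receptors were read from 5 lists, chosen like the families with earlier results known. Among 25 partners of Slits, netrins and netrin-Gs, 2 rose, and Flrt1 and Ablim1 were among those that fell, and the shares to read such counts against are 3.78% of all genes for those that rose and 6.52% for those called. Flrt3, a membrane protein that binds Unc5 receptors and Robo1, had a log2 change above that of every ligand and receptor tested: sham and SNI means were 47.2 ± 3.92 and 192 ± 6.05 CPM (females) and 39.5 ± 1.19 and 169 ± 10.7 CPM (males; SD, n = 3; log2 2.06 ± 0.0804; adjusted p = 2.42e-09). Draxin, a secreted repellent that binds netrin 1 and Dcc, rose, with sham and SNI means of 4.34 ± 1.17 and 8.94 ± 1.41 CPM (females) and of 3.5 ± 0.918 and 9.77 ± 1.79 CPM (males; log2 1.26 ± 0.211; adjusted p = 0.00229). Flrt1, a paralog of Flrt3, fell from 38.9 ± 4.44 to 24.5 ± 1.96 CPM and from 41.4 ± 5.57 to 27 ± 2.8 CPM (-0.64 ± 0.112; adjusted p = 0.00309). The actin-binding Ablim1 gave -0.34 (adjusted p = 0.0446), but of the 12 fits that leave 1 library out its call held in 2, those lacking Female sham replicate 1 or else Male SNI replicate 2 (-0.40 to -0.28 over the 12).

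Of 23 partners of semaphorins 1 rose, a share near the 3.78% of all genes, and this was Itgb1, the integrin subunit through which Sema7a acts (log2 0.51 ± 0.0967; adjusted p = 0.00501; means of 300 ± 32.9 and 466 ± 10 CPM for females and 315 ± 26.9 and 414 ± 70 CPM for males, SD, n = 3). Of 14 partners of Eph receptors 0 passed edgeR's test. An unadjusted p below 0.05 was reached by 2, against 2764 of all 15036 genes. DESeq2 called 1 (Chn2) and limma-voom 3 (Kalrn, Chn2 and Adam10). Of 13 shared effectors on actin and microtubules 2 rose: Limk2, a kinase that inactivates cofilin (0.43 ± 0.0991; adjusted p = 0.017, lost when Female SNI replicate 1, else Female sham replicate 3, else Male sham replicate 2 was left out, with 0.38 to 0.48 over the 12 fits), and the GTPase Rac1 (0.26 ± 0.0729; adjusted p = 0.0484, held only without Male SNI replicate 2, with 0.24 to 0.30). Of 10 genes of myelin and proteoglycan growth inhibition 1 rose, Rtn4, which encodes Nogo (0.48 ± 0.0678; adjusted p = 0.000586; means of 1140 ± 0.523 and 1620 ± 9.57 CPM for females and 1140 ± 37.6 and 1560 ± 84 CPM for males). The count for growth inhibition depended on the tool, with 3 called by DESeq2 and 7 by limma-voom, and that for semaphorin partners likewise, with 2 and 3. Without the share of all genes that DESeq2 and limma-voom called, which is not given here, their counts cannot be read as results about the lists. The median log2 change was 0.02 for semaphorin partners, -0.03 for Eph partners, 0.01 for Slit and netrin partners, 0.03 for the shared effectors and -0.23 for growth inhibition, where 8 of 10 were lower. For all tested genes it was 0.00307, and 7448 of 15036 were lower.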

How the data were processed

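Messenger RNA was counted in 12 libraries made with the QuantSeq 3′ kit, per the labels' protocols. Per the file headers, the deposited values are raw counts per gene symbol. Build mm10, Bowtie2 and bedtools stand in the submitters' processing notes, without versions or roles. The sources used here do not say how strand, shared reads and molecular identifiers were treated. Each file had 23282 rows and 23238 symbols, and 44 extra rows of 35 repeated symbols were summed. Groups came from the titles.

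Genes were kept by filterByExpr (minimum count 10), scaled by TMM factors (0.914 to 1.07), and fitted with 1 coefficient per group over all 12 libraries in edgeR 4.0.16 (limma 3.58.1, R 4.3.3), which shares the estimate of the spread. Quasi-likelihood F tests, two-sided, were adjusted by Benjamini-Hochberg over the 15036 genes tested, and an adjusted p below 0.05 was called. Contrasts were injury averaged over the sexes, injury in each sex, males minus females in that change, and males minus females in sham. The procedure was tested on simulated data. The alternatives were DESeq2 (1.42.0) and its size factors, other filters, no Rn45s row, a replicate block, limma-voom with sample weights, each library left out, the pair of libraries that stood apart left out, and each sex fitted alone.

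Named genes were those called in any contrast, the gene with the highest mean CPM of each family, genes with no overlap between the 6 SNI and 6 sham libraries, and of the partner lists the called genes with the largest and smallest change; other genes near the threshold or apart in a library were named after their values were seen. The members and lists were chosen with earlier results of these data known. No pair of replicates agreed within sampling noise (chi-square per gene at least 8.4). Positions and promoter windows came from RefSeq for GRCm38.p6 and exon overlaps from GENCODE; the 72 symbols all matched, and 62 had a promoter window. Some items of the lists are not reported here.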

Additional observations from a re-analysis of the deposited data

How the results depend on the processing

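Of 500 recomputed log2 changes of 25 named genes, 429 kept their direction and side of the threshold, 53 lost a call, 3 gained one and 15 changed sign. The sign changes were all in genes near 0 that never passed: Sema5a (-0.0182 with limma-voom weights, -0.00454 without both libraries that stood apart, -0.00678 without Male SNI replicate 2, up to 0.145 over the fits that leave 1 library out), Nrp1 (0.0961 with limma-voom weights, 0.0544 without both, and 0.0228, 0.0667, 0.111 and 0.067 without 1 of 4 libraries, down to -0.0922) and Ephb6 (0.0101, 0.00782, 0.0178, 0.012, 0.0449 and 0.0381 without 1 of 6 libraries, down to -0.165). The count of guidance genes that rose was 4 in the reported fit and 4 to 5 with any 1 library left out. To those that rose limma-voom added Sema3c and Sema4a, while DESeq2 and the fit without both libraries that stood apart added Sema3c. The count that fell was 5, 3 to 9 with any 1 library left out, 11 with limma-voom and 9 without both libraries that stood apart. The count called in females was 4, 1 to 7 with any 1 library left out, 12 with limma-voom, 7 without both, and 7 with females fitted alone. The count called in males was 4, 2 to 5 with any 1 library left out, 9 with DESeq2, 12 with limma-voom, 7 without both, and 1 with males fitted alone, where only Sema6a passed. The difference between the sexes and between shams gave 0 in every fit (0 to 0 with any 1 library left out). The cause of these shifts was not tested. For DESeq2, limma-voom and each sex fitted alone the share of all genes called is not given here, so those counts only compare settings. With the replicate block the same 9 genes were called over both sexes, the female count was 2 (without Robo2 and Ntng1) and the male count 3 (without Slit2). Deviations of 18 same-numbered pairs correlated from -0.0753 to 0.385, only 2 above 0.1, and 6 of 12 libraries correlated best with their own number. Pairs with different numbers ranged from -0.375 to 0.317. The value of 0.385 joined Female sham replicate 2 and Male SNI replicate 2, the libraries that stood apart. Whether the replicate numbers mark libraries handled together was not tested. With size factors in place of TMM the median change of all genes moved by 0.0051 on the log2 scale. With 3 libraries a group, changes of low genes such as Slit3, Dcc and Sema3g were not readable at this depth.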
